A study of Homo sapiens with 6 samples.

Results

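The nuclear pore and nuclear transport genes are 50 genes for the proteins that build the channel through the nuclear envelope and carry cargo through it. They were taken as a named list of importins, exportins, Ran cycle proteins and nucleoporins, and all 50 symbols matched exactly 1 of the 60483 gene IDs in the count tables. Of these, 49 had enough counts to be tested among 14900 tested genes. RNA was measured by sequencing in DLD-1 cells, an established human colorectal adenocarcinoma line kept in RPMI-1640 with fetal bovine serum and used at passage 16-19. The control group was transfected with control siRNA and the other group with AHR siRNA, which targets the aryl hydrocarbon receptor (AHR), a ligand-activated transcription factor, with 3 libraries in each group. The sources used here give neither the siRNA sequence nor the time after transfection. A single line was used, and no label says that replicates came from separate cultures, so p-values reflect only how far these libraries scatter, which may be technical scatter.

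The nuclear pore complex is built from many copies of nucleoporins arranged in rings, with a central channel lined by flexible phenylalanine-glycine repeats. Importin alpha adaptors bind classical nuclear localization signals and ride with importin beta into the nucleus, where Ran bound to GTP releases the cargo, while exportins bind cargo together with Ran-GTP and release it in the cytoplasm. RCC1 on chromatin loads Ran with GTP and RANGAP1 on the cytoplasmic side triggers its hydrolysis, so the pore keeps a gradient of Ran-GTP. Several of these proteins also act at spindles and kinetochores once the envelope has broken down in mitosis.

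The libraries held 13585529 to 15037145 counts in the control group and 11567736 to 12937058 counts in the AHR siRNA group, so every AHR siRNA library was shallower than every control library. Levels below are counts per 1000000 counts (CPM), scaled with edgeR's TMM factors. AHR itself, the check of the labels, was at 117, 144 and 132 CPM in control libraries and 95.8, 87.4 and 94.95 CPM in AHR siRNA libraries. The groups did not overlap and AHR RNA was at 70.9% of the control mean (edgeR adjusted p = 1.98e-05), a partial decrease. A decrease was called for 30.1% of all tested genes, so that of AHR is a weak check of the labels. Summed epithelial markers, 9 of 10 of which were tested, were at 11630 to 13150 CPM in control and 8032 to 8354 CPM in AHR siRNA libraries. Most of that sum was KRT8 and KRT18, at 61.4% and 62.1% of control, and of the 9 markers 5 fell, 3 did not pass the test (KRT19, KRT20 and LGALS4) and VIL1 rose to 449% of control. Summed fibroblast (8 genes), leukocyte (7 genes) and endothelial (5 genes) markers each stayed under 5 CPM in every library, with DCN, LUM, PDGFRA, THY1 and KDR at 0 throughout.

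Most of the pore and transport genes were lower after AHR siRNA. Of the 49 tested, 40 fell, 2 rose (KPNA6 and TNPO2) and 7 did not pass the test at an edgeR adjusted p of 0.05 (XPO7, IPO8, IPO11, IPO13, RANBP2, NUP210 and POM121). The background in this comparison was high, since 60.1% of all tested genes were called, 30.1% lower and 30.0% higher. Among the 7167 genes at least as abundant as the lowest member, 41.7% were called lower and 26.9% higher, against 81.6% and 4.08% of the tested members. The members were chosen with earlier results of these data known, so this contrast is a description and not a test. The median log2 fold change of the members was -0.55, or 68.5% of control, beside 0.01 over all tested genes and -0.09 over those 7167 genes. Most decreases were moderate: NUTF2, NUP54 and KPNA2 were the members lower by at least 2-fold, 3 of 49 where 5.46% of all tested genes were. All AHR siRNA libraries lay below all control libraries for 39 of the 49 members. This held for 31.7% of all tested genes and for 3091 of those 7167 genes. The groups overlapped for 9 members, among them NUP37, called lower, and TNPO2, called higher. They overlapped for 5404 of the 14900 tested genes and for 2073 of those 7167 genes. In bulk RNA, fewer cells of a kind and less RNA per cell cannot be told apart. With library totals in place of TMM factors, 34 members were called lower and 4 higher, while over all tested genes the calls moved from 4479 lower and 4474 higher to 3205 lower and 5885 higher.

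**Figure D1:**
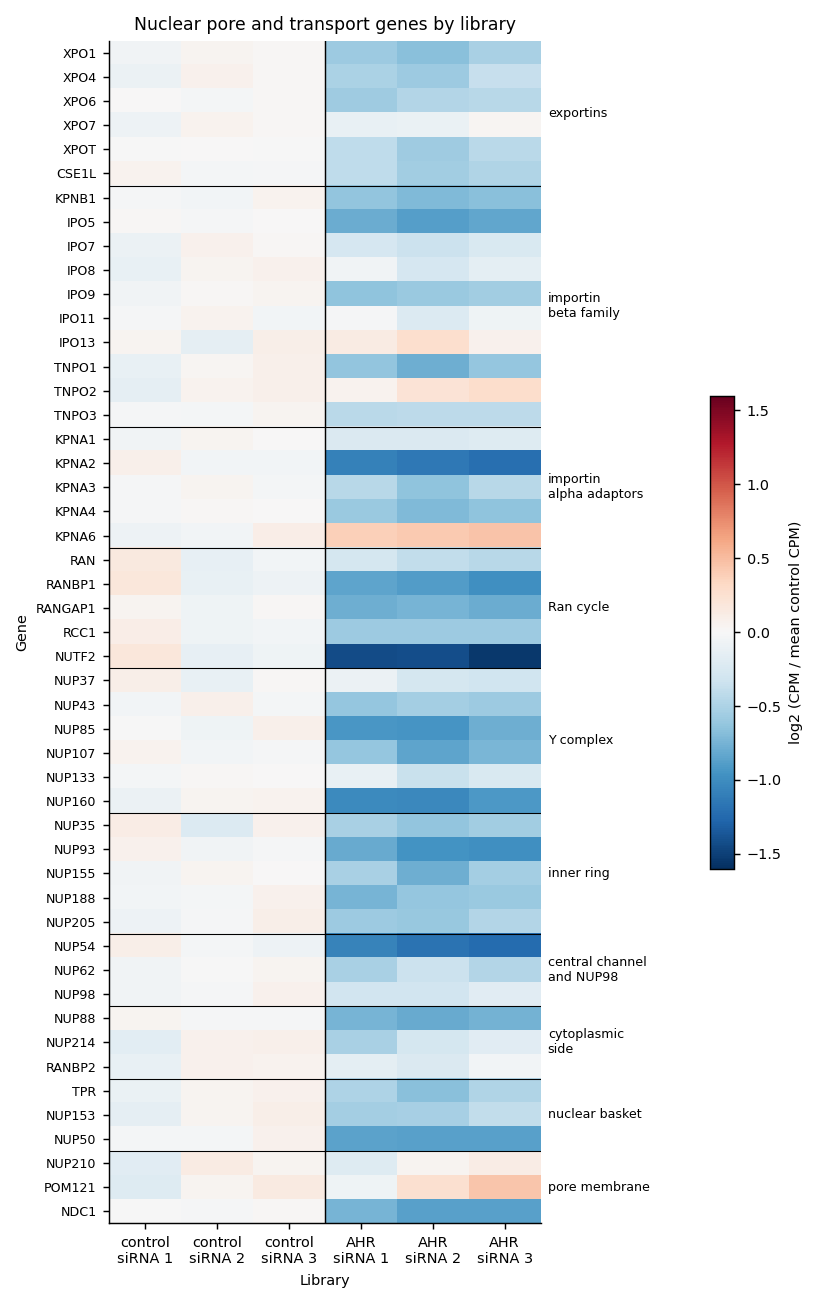
Level of each tested member in every library as log2 CPM minus that gene's mean over the control libraries, with genes in rows by role and the 6 libraries in columns. Most rows are lower in the 3 AHR siRNA libraries, and KPNA6 is the row with the largest rise.

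The members were well counted, from 263 to 16009 counts in a library and with mean levels from 26.2 to 958 CPM. The median of a member's SD over its mean was 5.07% in control and 5.64% in AHR siRNA libraries. Per kilobase of exon, the most abundant control transcripts were RAN at 224 CPM per kb, the GTPase that gives transport its direction, and KPNA2 at 204 CPM per kb. IPO7 followed at 114 and CSE1L at 103 CPM per kb, and IPO11 was lowest at 6.19 CPM per kb. After AHR siRNA, RAN at 173 CPM per kb remained first, but KPNA2 at 92.4 and IPO7 at 94.0 CPM per kb then lay next to each other. IPO4, an importin for ribosomal proteins and histones, was the member left untested, with 6, 3 and 6 counts in control and 8, 3 and 2 counts in AHR siRNA libraries. In GENCODE 29, 69.3% of the exon bases of IPO4 are shared with other genes on the same strand, so how its reads were assigned is uncertain.

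Start-site sequences are shown for KPNA2 and NDC1, which fell, and KPNA6, which rose, as examples of clear falls and of the well-separated rise. They were picked after the search for the words below, because they hold them, so they do not stand for the members as a whole. Each is the RefSeq GRCh38.p14 window from 250 bases before to 50 bases after the annotated start, written 5′ to 3′ on the gene's strand. Capitals mark 3 words on either strand: CCAAT, the core of the box bound by NF-Y; TTTGAA, a core found in cell cycle homology regions; and GCGTG, the core of the element bound by AHR with ARNT. On the other strand they read ATTGG for the NF-Y box, TTCAAA for the cell cycle word and CACGC for the AHR core. The windows are chr17:68035485-68035784 on the plus strand for KPNA2, chr1:53838247-53838546 on the minus strand for NDC1 and chr1:32107806-32108105 on the plus strand for KPNA6.
KPNA2: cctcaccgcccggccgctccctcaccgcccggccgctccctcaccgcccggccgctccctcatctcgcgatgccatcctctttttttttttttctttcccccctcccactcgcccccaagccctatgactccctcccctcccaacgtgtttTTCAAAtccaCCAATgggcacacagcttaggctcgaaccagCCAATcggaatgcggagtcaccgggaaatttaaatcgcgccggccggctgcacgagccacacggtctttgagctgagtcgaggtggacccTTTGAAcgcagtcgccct
NDC1: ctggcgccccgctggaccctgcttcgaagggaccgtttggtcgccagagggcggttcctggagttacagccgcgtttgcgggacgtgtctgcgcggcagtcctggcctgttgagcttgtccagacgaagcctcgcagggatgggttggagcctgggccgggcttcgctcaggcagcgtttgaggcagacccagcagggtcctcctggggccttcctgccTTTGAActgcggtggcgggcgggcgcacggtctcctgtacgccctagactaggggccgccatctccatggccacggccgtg
KPNA6: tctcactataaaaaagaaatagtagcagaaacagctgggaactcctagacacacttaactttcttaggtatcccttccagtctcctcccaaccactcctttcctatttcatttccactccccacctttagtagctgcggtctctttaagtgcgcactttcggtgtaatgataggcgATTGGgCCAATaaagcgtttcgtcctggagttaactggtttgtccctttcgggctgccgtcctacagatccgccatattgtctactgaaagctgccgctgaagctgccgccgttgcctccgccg
The KPNA2 window holds CCAAT 89 and 58 bases before the start, TTCAAA 99 bases before it and TTTGAA 33 bases after it. NDC1 holds TTTGAA 31 bases before its start, and KPNA6 holds ATTGG 74 and CCAAT 68 bases before its start, with no TTTGAA in its window. None of the printed windows holds GCGTG.

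Windows were found for 45 of the 50 members, 60 windows in all because some genes have several starts, and not for XPO7, NUP43, KPNB1, RANBP1 and KPNA4. TTTGAA on either strand was in 16 of the 60 windows (26.7%), beside 10.5% of the 15559 windows of tested genes and 15.2% of all 35116 windows. Windows of a gene can overlap, as those of NUP98 do, so windows are not independent. By gene, 14 of the 45 members with a window held TTTGAA, and the share by gene over all tested genes was not counted. CCAAT was in 40.0% of member windows, beside 34.6% for tested genes, and GCGTG in 58.3%, beside 48.2%. The ETS word CCGGAAG was in 23.3% of member windows, beside 16.5%, and the NRF1 word TGCGCA in 13.3%, beside 11.7%. Of the 14 tested members with TTTGAA, 13 were called lower and none higher, and of the 30 tested members whose windows lack it, 23 were called lower and 2 higher. Members with GCGTG were called lower in 23 of 28 cases, and those without it in 13 of 16. For CCAAT these counts were 18 of 20 and 18 of 24, and both members called higher hold it. They were 12 of 13 and 24 of 31 for CCGGAAG, and 6 of 8 and 30 of 36 for TGCGCA. The calls of all tested genes with and without each word were not counted, so no link between a word and a call can be read from these counts. A match is a string of letters in a window and not a measured binding site.

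The importin alpha adaptors moved in opposite directions. KPNA2, KPNA4, KPNA3 and KPNA1 fell and KPNA6 rose, and no other family among the members held a well-separated rise beside its falls. KPNA2 (ENSG00000182481.7, chromosome 17), an importin alpha that is abundant in proliferating cells, was at 679, 623 and 619.6 CPM in control and 302, 290.1 and 278 CPM in AHR siRNA libraries. Its libraries formed separate groups, with AHR siRNA at 45.3% of control (log2 fold change -1.14, SE 0.07, edgeR adjusted p = 6.07e-11). KPNA6 (ENSG00000025800.12, chromosome 1), a broadly expressed importin alpha of another subfamily, was at 137, 141 and 156 CPM in control and 188, 193 and 197 CPM in AHR siRNA libraries. Every AHR siRNA library was above every control library, at 134% of the control mean (log2 fold change 0.42, SE 0.07, edgeR adjusted p = 2.91e-05). The rise of KPNA6 kept its call under all 16 alternative settings, with log2 fold changes of 0.37 to 0.56. In GENCODE 29, 8.92% of the KPNA6 exon bases are shared with AL049795.2 on the same strand.

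KPNA4 and KPNA3 form the remaining subfamily and carry, among others, NF-kappaB and RCC1 into the nucleus. KPNA4 was at 193, 199 and 196 CPM in control and 130.3, 120.2 and 126 CPM in AHR siRNA libraries, 64.0% of control (log2 fold change -0.64, SE 0.06, edgeR adjusted p = 7.06e-08). KPNA3 was at 150.3, 158 and 149.5 CPM in control and 112, 97.7 and 112 CPM in AHR siRNA libraries, 70.2% of control (log2 fold change -0.51, SE 0.07, edgeR adjusted p = 4.04e-06). For both, the control libraries were all above the AHR siRNA libraries. KPNA1, the closest relative of KPNA6 among the members, fell to 85.6% of control (edgeR adjusted p = 0.00741), but its call was lost with upper-quartile factors (adjusted p = 0.068) and with library totals (adjusted p = 0.339). In GENCODE 29, 16.3% of the KPNA1 exon bases overlap another gene on the opposite strand, and the sources used here do not say whether counting used strand.

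A share within the family does not depend on how libraries are scaled. Of the counts on the 5 importin alpha members, KPNA2 held 54.9%, 51.8% and 51.6% in control libraries and 37.8%, 37.7% and 35.5% in AHR siRNA libraries. That is 52.7% ± 1.9 against 37.0% ± 1.2 (SD, n = 3 each), with no overlap. The difference was -15.7 percentage points and the exact two-sided permutation test gave p = 0.1, the smallest value that 3 against 3 libraries allow. The share of KPNA6 went the other way, from 11.9% ± 0.96 to 24.6% ± 0.95 (SD, n = 3 each; exact permutation p = 0.1). KPNA1 held 6.64% and 8.79%, KPNA3 12.6% and 13.6% and KPNA4 16.1% and 16.0% in the control and AHR siRNA groups. Per kilobase of exon, the KPNA2 share was 70.9% in control and 56.5% after AHR siRNA, and that of KPNA6 was 6.72% and 15.8%. These are 5 shares of a single sum, so they are not independent of each other. With the 6 exportins below, 11 shares were compared, and an exact permutation p of 0.1 becomes 0.22 after Benjamini-Hochberg adjustment over them.

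**Figure D2:**
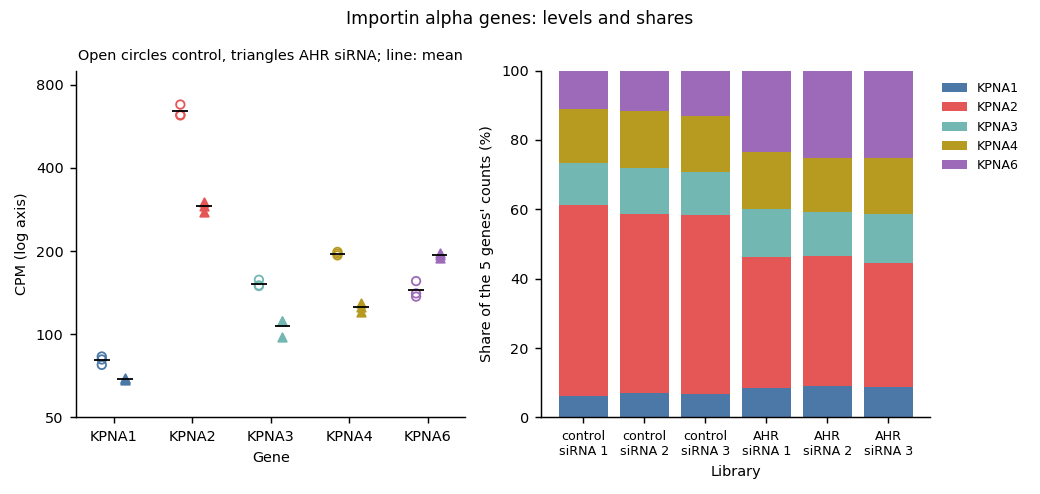
Left, CPM of the 5 importin alpha genes in each library on a log axis, with circles for control, triangles for AHR siRNA and a line at the mean. Right, the share of the 5 genes' counts held by each gene in each library; KPNA2 holds 51.6% to 54.9% in control and 35.5% to 37.8% in AHR siRNA libraries.

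The importin beta family was mixed. Of its 10 tested members 6 fell, 1 rose and 3 did not pass the test, with a median log2 fold change of -0.35. IPO5, which imports ribosomal proteins and histones, was at 643, 625 and 637 CPM in control and 367, 346 and 358 CPM in AHR siRNA libraries. All AHR siRNA libraries were close to each other and below control, at 56.2% (log2 fold change -0.83, SE 0.06, edgeR adjusted p = 1.92e-09). KPNB1, importin beta 1, the partner of every importin alpha in classical import, was at 714, 705 and 754 CPM in control and 467, 444 and 457 CPM in AHR siRNA libraries, again without overlap (63.0% of control; log2 fold change -0.67, SE 0.07, edgeR adjusted p = 5.22e-08). TNPO1, transportin 1, which carries hnRNP A1 and other cargo with proline-tyrosine signals, was at 356, 393 and 409 CPM in control and 249, 225 and 251 CPM in AHR siRNA libraries. Its AHR siRNA libraries all lay below control, at 62.6% (log2 fold change -0.68, SE 0.07, edgeR adjusted p = 1.43e-07).

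TNPO2, the close paralog of TNPO1, was called in the other direction, at 104, 119.7 and 122 CPM in control and 119.9, 133 and 139 CPM in AHR siRNA libraries. AHR siRNA replicate 1 lay below control replicate 3, so the groups overlapped, and the increase was small (114% of control; log2 fold change 0.19, SE 0.08, edgeR adjusted p = 0.0438). Its call was lost when any library other than AHR siRNA replicate 1 was left out, with adjusted p from 0.0509 to 0.18, and with the DESeq2 Wald test (adjusted p = 0.0662). Of the others, IPO9, which imports core histones, fell to 66.2%, TNPO3, the importin of SR splicing factors, to 74.6% and IPO7, which imports ribosomal proteins, to 82.2% of control. The IPO7 call was lost with library totals (adjusted p = 0.084). IPO8, the close relative of IPO7, stood at 89.7% and IPO11, which imports ubiquitin-conjugating enzymes, at 93.0% of control, and IPO13, which both imports and exports, at 111%, with overlapping groups in all 3 cases. The 95% intervals of their log2 fold changes were -0.30 to -0.01 for IPO8, -0.26 to 0.05 for IPO11 and -0.0039 to 0.32 for IPO13. IPO8 passed the test without control replicate 1 (adjusted p = 0.00516) and without AHR siRNA replicate 1 (adjusted p = 0.039). IPO11 shares 22.6% of its exon bases with other genes on its strand.

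The exportins fell by similar amounts, apart from XPO7. XPO1, the receptor for leucine-rich export signals also called CRM1, was at 595, 640.5 and 628 CPM in control and 414, 390.3 and 434 CPM in AHR siRNA libraries. The groups stood apart, with AHR siRNA at 66.4% of control (log2 fold change -0.59, SE 0.07, edgeR adjusted p = 4.05e-07). XPO6, the exporter of profilin and actin, was at 271, 265 and 274 CPM in control and 182, 194 and 198 CPM in AHR siRNA libraries (71.0%; log2 fold change -0.49, SE 0.06, edgeR adjusted p = 2.06e-06). CSE1L, which returns importin alpha to the cytoplasm, was at 405, 381 and 384 CPM in control and 294, 264 and 280.4 CPM in AHR siRNA libraries, also without overlap (71.7%; log2 fold change -0.48, SE 0.07, edgeR adjusted p = 4.24e-06). XPO4, the exporter of eIF5A, and XPOT, the tRNA exportin, fell to 71.8% and 72.3% of control. XPO7 was at 184, 204 and 198 CPM in control and 179.7, 182 and 200 CPM in AHR siRNA libraries, and the groups overlapped. Its log2 fold change was -0.06 with a 95% interval of -0.20 to 0.07 and an edgeR adjusted p of 0.46. XPO7 held 11.2% ± 0.41 of the summed exportin counts in control and 14.8% ± 0.54 in AHR siRNA libraries (SD, n = 3 each; exact permutation p = 0.1, the smallest possible). The share of XPO1 moved from 35.6% to 32.6% (exact permutation p = 0.1), and those of XPO4, XPO6, XPOT and CSE1L gave exact permutation p from 0.6 to 0.9.

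All 5 genes of the Ran cycle fell, with a median log2 fold change of -0.77, and their summed level was at 65.5% of control. NUTF2 (ENSG00000102898.10, chromosome 16), also called NTF2, brings Ran bound to GDP back into the nucleus and had the largest decrease of all members. It was at 248, 201 and 210.2 CPM in control and 81.3, 82.5 and 75.6 CPM in AHR siRNA libraries. Control replicate 1 was the highest library, yet even the lowest control library was far above the AHR siRNA group (36.3% of control; log2 fold change -1.46, SE 0.08, edgeR adjusted p = 2.2e-11). RANGAP1, the GTPase activating protein of Ran, was at 305, 282 and 299 CPM in control and 172, 176 and 170.0 CPM in AHR siRNA libraries. RANBP1, which assists RANGAP1 in taking export complexes apart, was at 449, 366 and 374 CPM in control and 222, 214 and 202 CPM in AHR siRNA libraries. Both were lower in every AHR siRNA library, RANGAP1 at 58.5% (log2 fold change -0.77, SE 0.06, edgeR adjusted p = 5.21e-09) and RANBP1 at 53.5% of control (log2 fold change -0.90, SE 0.08, edgeR adjusted p = 9.84e-09). RCC1, the exchange factor on chromatin, fell to 66.9% of control. RAN itself had the smallest change of the group, to 77.3% of control (edgeR adjusted p = 0.000439), and it was not called when the fold had to exceed 1.2 (glmTreat adjusted p = 0.0679). Control replicate 1 was the highest control library for RAN, RANBP1, RANGAP1, RCC1 and NUTF2 alike.

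Among the 23 nucleoporins 20 fell, none rose and 3 did not pass the test, with a median log2 fold change of -0.56. The 26 tested transport factors had 20 lower, 2 higher and a median of -0.49. Called lower were thus 87.0% of the nucleoporins and 76.9% of the transport factors. The share was 30.1% over all tested genes and 41.7% over the 7167 genes at least as abundant as the lowest member. The counts given for each role stand beside these same background shares.

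**Figure D3:**
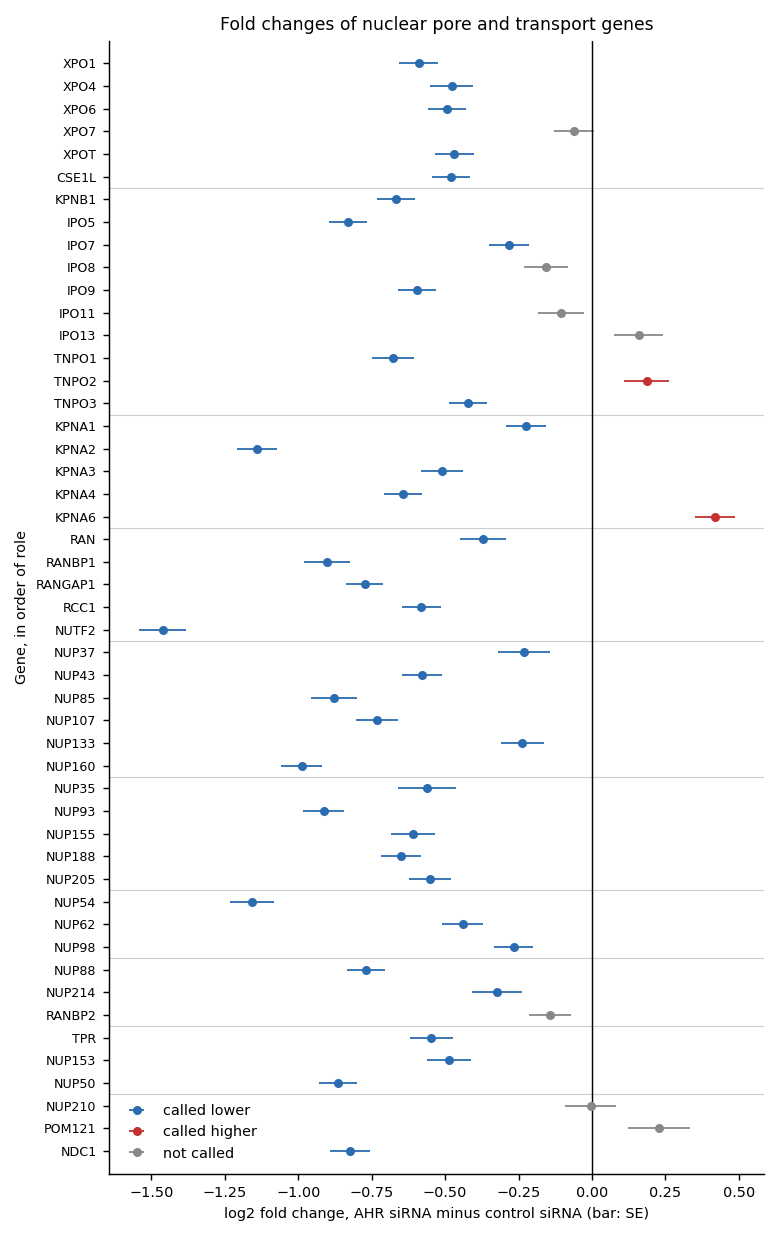
Log2 fold change (AHR siRNA minus control siRNA) of each tested member with a bar for its SE, grouped by role. NUTF2 at -1.46, NUP54 at -1.16 and KPNA2 at -1.14 lie farthest to the left and KPNA6 at 0.42 farthest to the right.

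The Y complex is the scaffold of the outer rings and a component of kinetochores in mitosis. All 6 members grouped under it here were called lower. NUP98 was grouped with the central channel, so it is neither in this count nor in the summed level of the Y complex. NUP160 was at 136, 149.7 and 151 CPM in control and 72, 71.2 and 76.7 CPM in AHR siRNA libraries. NUP85 was at 62.7, 60.2 and 66.6 CPM in control and 33.2, 33.0 and 36.9 CPM in AHR siRNA libraries. NUP107 was at 124, 116 and 118 CPM in control and 77.5, 66.4 and 71.7 CPM in AHR siRNA libraries. None of these groups overlapped, and the levels after AHR siRNA were 50.4% of control for NUP160 (log2 fold change -0.99, SE 0.07, edgeR adjusted p = 5.76e-10), 54.3% for NUP85 and 60.2% for NUP107. The edgeR adjusted p was 1.4e-08 for NUP85 and 5.66e-08 for NUP107. NUP43, a propeller protein of the complex, fell to 67.0%, while NUP133, at the tip of its stem, and NUP37, a second propeller, were nearer to control at 84.9% and 85.2%. NUP37 overlapped between groups and was not called when control replicate 1, control replicate 3, AHR siRNA replicate 2 or AHR siRNA replicate 3 was left out (adjusted p of 0.0608 to 0.124). NUP133 lost its call without AHR siRNA replicate 2 (adjusted p = 0.0706), and both lost it with upper-quartile factors and with library totals. SEH1L and SEC13, subunits of the complex that are not among the 50 members, were at 85.0% and 104% of control. SEC13 did not pass the test (edgeR adjusted p = 0.513) and its groups overlapped.

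All 5 inner ring genes fell, the ring that anchors the channel to the membrane, and their summed level was at 62.6% of control, close to those of the Y complex and the nuclear basket at 63.3% and 63.4%. That sum was 621, 617 and 646 CPM in control and 397, 378 and 403 CPM in AHR siRNA libraries. NUP93, the linker of the ring, was at 169, 155 and 159 CPM in control and 92.0, 83.0 and 81.5 CPM in AHR siRNA libraries and fell to 53.1% (log2 fold change -0.91, SE 0.07, edgeR adjusted p = 1.99e-09). NUP188, a large scaffold protein that binds NUP93, was at 156, 158 and 169.7 CPM in control and 96.0, 105 and 107 CPM in AHR siRNA libraries. NUP155, which contacts the membrane, was at 137, 147 and 143 CPM in control and 99.2, 83.0 and 97.8 CPM in AHR siRNA libraries. The libraries of both genes separated by group, at 63.7% of control for NUP188 (log2 fold change -0.65, SE 0.07, edgeR adjusted p = 1.47e-07) and 65.6% for NUP155 (log2 fold change -0.61, SE 0.07, edgeR adjusted p = 1e-06). NUP205, the paralog of NUP188, fell to 68.2% and NUP35, which bends the pore membrane, to 67.6% of control.

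In the central channel, partners of 1 complex fell by unequal amounts. NUP54 (ENSG00000138750.13, chromosome 4), a repeat protein that lines the channel, was at 97.7, 89.8 and 86.7 CPM in control and 43.6, 40.3 and 39.1 CPM in AHR siRNA libraries, with a wide gap between groups (44.9% of control; log2 fold change -1.16, SE 0.08, edgeR adjusted p = 2.23e-10). NUP62, its partner with the same kind of repeats, was at 119, 123 and 127 CPM in control and 85.8, 97.2 and 88.6 CPM in AHR siRNA libraries, lower in every AHR siRNA library but at 73.7% of control (log2 fold change -0.44, SE 0.07, edgeR adjusted p = 2.12e-05). NUP58, which is not one of the 50 members and forms the channel complex with NUP54 and NUP62, fell from 147 to 54.6 CPM on average, 37.3% of control (log2 fold change -1.43, SE 0.07, edgeR adjusted p = 1.31e-11). NUP98, a mobile repeat protein of both faces of the pore, was at 372, 384 and 405 CPM in control and 312, 313 and 340.4 CPM in AHR siRNA libraries. Its groups were close but did not overlap (83.1%; log2 fold change -0.27, SE 0.07, edgeR adjusted p = 0.00191), and its call was lost with library totals (adjusted p = 0.126). NUP62 shares 12% of its exon bases with other genes on its strand.

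On the cytoplasmic side, NUP88 was at 181, 172 and 172 CPM in control and 104, 100 and 104 CPM in AHR siRNA libraries. The AHR siRNA libraries of this filament protein were all at a similar, lower level (58.7% of control; log2 fold change -0.77, SE 0.06, edgeR adjusted p = 6.17e-09), although 18.7% of its exon bases overlap other genes on either strand. NUP214, the partner of NUP88 that docks export complexes, was at 116, 137 and 138 CPM in control and 91.1, 107 and 114 CPM in AHR siRNA libraries. Its highest AHR siRNA library was just under its lowest control library (79.9%; log2 fold change -0.32, SE 0.09, edgeR adjusted p = 0.00302), and the call was lost with library totals (adjusted p = 0.115). RANBP2, the large Ran-binding SUMO ligase of the filaments, was at 279.8, 318 and 315 CPM in control and 274, 258 and 295 CPM in AHR siRNA libraries, and the groups overlapped. Its log2 fold change was -0.14 with a 95% interval of -0.28 to -0.0012 and an edgeR adjusted p of 0.0958, and without control replicate 1 it passed the test (adjusted p = 0.00389). RANBP2 has near-identical RGPD copies and POM121 has POM121C, so how reads were split between copies is uncertain for both.

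The 3 nuclear basket genes all fell. NUP50, which helps to release cargo from importin alpha, was at 320.4, 320.5 and 344 CPM in control and 181, 179 and 180.1 CPM in AHR siRNA libraries. Its AHR siRNA libraries were nearly equal and far below control (54.9%; log2 fold change -0.86, SE 0.06, edgeR adjusted p = 1.09e-09). TPR, the coiled-coil protein of the basket, was at 278, 308 and 314 CPM in control and 212, 189 and 215 CPM in AHR siRNA libraries (68.5%; log2 fold change -0.55, SE 0.07, edgeR adjusted p = 2.45e-06). NUP153, which joins the basket to the ring, was at 139, 158 and 164 CPM in control and 105, 106 and 118 CPM in AHR siRNA libraries (71.3%; log2 fold change -0.49, SE 0.08, edgeR adjusted p = 1.61e-05). For both, each AHR siRNA library was below each control library.

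The fold changes of the pore membrane genes spread widely. NDC1, which spans the membrane and anchors the scaffold, was at 123, 121 and 125 CPM in control and 73.8, 67.7 and 67.2 CPM in AHR siRNA libraries, with separate groups and a fall to 56.5% of control (log2 fold change -0.82, SE 0.07, edgeR adjusted p = 4.85e-09). NUP210, a glycoprotein with most of its mass in the lumen of the envelope, was at 222, 277 and 260.1 CPM in control and 220.1, 262 and 275 CPM in AHR siRNA libraries. The libraries of the groups were mixed, and its log2 fold change was -0.0039 with a 95% interval of -0.17 to 0.17 (edgeR adjusted p = 0.974). POM121, a membrane protein with roles early in pore assembly, was at 82.2, 98.2 and 104 CPM in control and 90.7, 113 and 129.6 CPM in AHR siRNA libraries, with overlapping groups and control replicate 1 lowest of all. Its log2 fold change was 0.23 with a 95% interval of 0.02 to 0.43 (edgeR adjusted p = 0.0671). POM121 was called higher without control replicate 3 (adjusted p = 0.0419), without AHR siRNA replicate 1 (adjusted p = 0.00579) and with upper-quartile factors (adjusted p = 0.0169). The interval of NDC1, -0.96 to -0.69, lies apart from those of NUP210 and POM121, though the differences between genes were not tested.

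Further genes of the pathway were taken from lists. Over all tested genes, 30.1% were called lower and 30.0% higher. Over the 7167 genes at least as abundant as the lowest member, those shares were 41.7% and 26.9%. The median log2 fold change was 0.01 over all tested genes and -0.09 over those 7167 genes. Of 30 tested pore and transport genes outside the 50, 13 fell (43.3%), 3 rose (10%) and 14 did not pass the test. Their median log2 fold change was -0.08, near that of the 7167 genes. The smallest p-values belonged to NUP58, to SENP1, a SUMO protease at the pore, at 53.8% of control, and to AHCTF1, which starts pore assembly on chromatin and binds the Y complex, at 67.4%. The 3 that rose were GLE1, KPNA5 and SNUPN, at 136%, 151% and 143% of control. Of 19 genes of the lamina and envelope, 15 fell and 1 rose (SYNE2, at 118% of control), with a median of -0.41. LMNB1, TMPO and LMNB2, which build or bind the lamina, were at 47.6%, 46.3% and 48.8% of control. Of 16 tested mRNA export genes 8 fell and 2 rose (THOC5 and NCBP3, at 135% and 122% of control), with a median of -0.23, and the helicase DDX39A, the adaptor ALYREF and the cap-binding NCBP1 were at 45.0%, 46.9% and 72.1% of control.

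**Figure D4:**
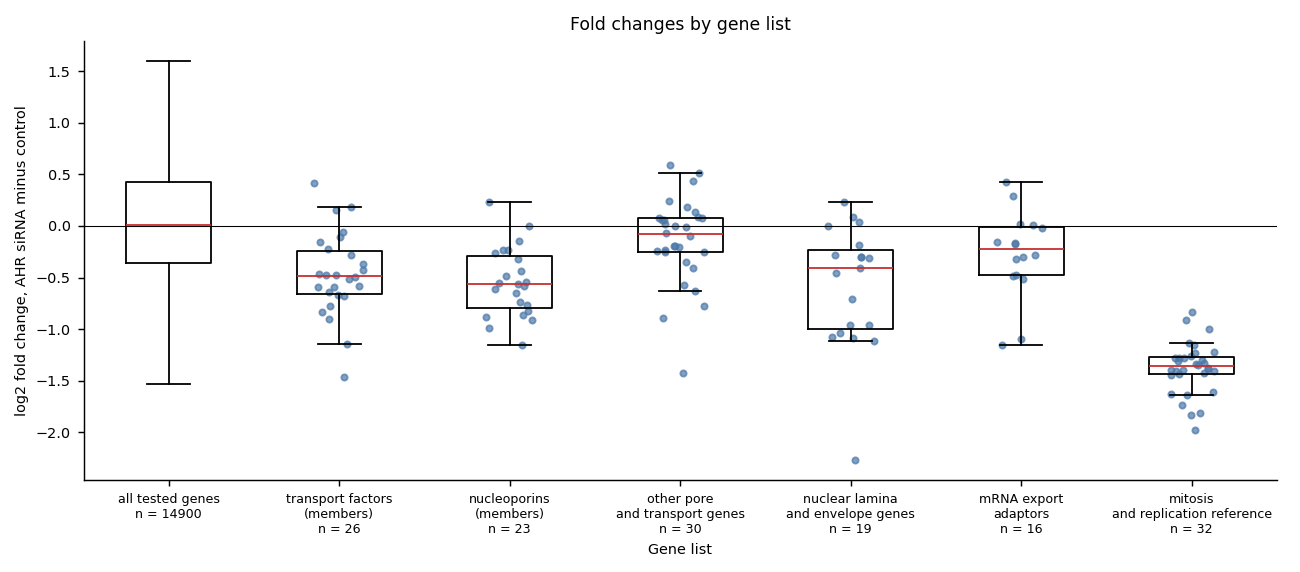
Log2 fold changes (AHR siRNA minus control siRNA) of the members, of related gene lists and of all 14900 tested genes, with a point per gene in the lists, boxes from the lower to the upper quartile and a line at the median. The medians are -0.49 for transport factors, -0.56 for nucleoporins, -0.08 for other pore and transport genes, -0.41 for lamina and envelope genes, -0.23 for mRNA export genes and -1.36 for mitosis and replication genes.

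Genes of mitosis and DNA replication were lower in the same libraries. All 32 genes of that list fell, with a median log2 fold change of -1.36, and ANLN, CDC20 and BUB1 were at 25.4%, 28.1% and 32.4% of control. Their summed level was 7633 to 7747 CPM in control and 2948 to 3147 CPM in AHR siRNA libraries. The part of this change in the values of the pore and transport genes was not tested.

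Some members also carry 3′ UTR words that an earlier analysis of these fold changes had picked, so the following counts are a description. GACTTAA or CACAACA was found in the longest annotated 3′ UTR of 10 tested members: KPNB1, IPO5, IPO7, IPO9, KPNA4, NUTF2, NUP107, NUP160, NUP93 and NUP155. All 10 fell, with a median log2 fold change of -0.70. Of the 39 members with neither word 30 fell and 2 rose, with a median of -0.48. Over all 12396 tested genes with a UTR, 18.1% held a word, and 45.2% of those were lower against 31.3% of the rest. The UTRs with a word were longer, with medians of 3224 bases against 1383 in members and 3069 against 1103 over all genes. The part of UTR length and of these words in the members' changes was not tested.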

How the data were processed

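RNA of 6 DLD-1 samples, 3 with control siRNA and 3 with AHR siRNA, was sequenced, and sample titles gave the groups. The authors deposited raw read counts as whole numbers, listed by Ensembl gene ID with its version. The tools HTSeq, TopHat and TopHat2 2.0.11 and the builds GRCh37 and hg19 are named per the submitters' processing notes, without role or order. Of the 60483 IDs, 37168 have the same version in GENCODE 29, an annotation of GRCh38, so the build behind the counts is uncertain and no coordinate was taken from them. The sources used here do not say how reads that map to several places were counted. The library totals, 11567736 to 15037145 counts, set the precision of each level.

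The unchanged counts went into edgeR 4.0.16 under R 4.3.3 (filterByExpr, TMM, glmQLFit and glmQLFTest with group as the only term), with Benjamini-Hochberg adjustment over 14900 genes. SEs are the log2 fold change divided by the square root of the F value, and 95% intervals are normal ones from these SEs, so they cover the spread between libraries only. They are narrower than the F test implies. The interval of RANBP2, -0.28 to -0.0012, lies wholly on the lower side, though its unadjusted p in the edgeR F test was 0.0629. Members and lists were chosen with earlier results of these data known. Values per library are given for up to 3 tested members of each role with the smallest p and for members called against most of their role; of the other lists, the 3 genes with the smallest p are named. Chosen after their values were seen were XPO7, for its values per library, the list genes that rose (GLE1, KPNA5, SNUPN, SYNE2, THOC5 and NCBP3) and the epithelial markers named. SEH1L and SEC13 were also named after their values were seen. Family shares were compared by exact permutation over libraries. Exon lengths and overlaps are from GENCODE 29 and promoter windows from RefSeq GRCh38.p14. Alternatives were DESeq2 1.42.0 size factors and Wald test, upper-quartile factors, library totals, other filters, limma-voom (limma 3.58.1), an adjusted p of 0.01, glmTreat at 1.2-fold, a replicate block and each library left out.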

Additional observations from a re-analysis of the deposited data

How the results depend on the processing

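Under the 16 alternatives, 33 of the 40 members called lower were called lower in every one and no tested member reversed its direction with a call. The number of members called lower ranged from 33 with glmTreat at a minimum fold of 1.2 to 42 with the replicate block, and from 38 to 41 with each library left out. With glmTreat, NUP37, NUP133, KPNA1, IPO7, NUP214, NUP98 and RAN lost their calls. Members called higher were 2 in the fit reported, 4 with upper-quartile factors, 4 with library totals (POM121 and IPO13 added in each), and 1 each with the DESeq2 Wald test, an adjusted p under 0.01 and glmTreat; leaving out each library gave 1 to 3. The median log2 fold change of members was -0.40 with library totals, where the median of all genes moved from 0.01 to 0.15. Over all genes, 8953 were called, 8050 to 8993 with a library left out, and glmTreat called 2910 lower in place of 4479. The KPNA2 share fell by 14.7 to 16.3 points with each library left out. Deviations of same-numbered libraries correlated at 0.41, -0.11 and 0.37, and those of differently numbered libraries at -0.55 to 0.42. These values do not settle whether replicate numbers pair the libraries. With the replicate block, 42 members were lower (IPO8 and RANBP2 added), 3 higher (POM121 added) and 9598 genes were called. The causes of these differences were not tested. Every tested member had at least 263 counts in each library, and IPO4 was too low to test.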
